A study of Mus musculus with 15 samples.

Results

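The enzymes that build purine nucleotides from small molecules were followed by their transcripts in mouse cardiomyocytes that overexpressed the transcription factor ATF4 or DDIT3. The set was chosen by symbol and holds 10 genes: Prps1, Ppat, Gart, Pfas, Paics, Adsl, Atic, Gmps, Impdh1 and Impdh2. All 10 stood among the 23337 genes of the count table, and all 10 were among the 11814 genes with enough counts to be tested. Each of the 3 groups held 5 RNA-seq libraries. The ATF4 group received AAV-ATF4-2A-GFP, the DDIT3 group AAV-DDIT3-2A-GFP and the GFP control group AAV-GFP, where AAV is an adeno-associated virus used as a gene carrier. All 3 groups were Rosa-Cas9GFP mice, so that the controls carried the Cas9 and GFP allele too, and all were injected on postnatal day 1. Cardiomyocytes were freed by Langendorff perfusion, which washes digestion enzymes through the coronary vessels, and were sorted by FACS at 4 weeks of age. The labels name neither the promoter that drives the vectors nor the signal used for sorting, and nothing says which libraries came from separate animals.

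De novo synthesis assembles the purine ring on a sugar phosphate, phosphoribosyl pyrophosphate (PRPP), with nitrogen from glutamine, glycine and aspartate and one-carbon units from formyl-tetrahydrofolate. The pathway ends in inosine monophosphate (IMP), which is then turned into AMP or GMP. The adult heart is known to rely largely on salvage of preformed purines. In cultured mouse and human cells, ATF4 is known to raise the mitochondrial folate enzyme MTHFD2, which feeds one-carbon units to this pathway, and MYC is known to activate several genes of the pathway itself.

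The vectors were seen in the table as counts of their own genes. Atf4 averaged 399.9 CPM (library-scaled counts) in ATF4 libraries, against 66.5 in DDIT3 libraries and 71.2 in GFP libraries. Ddit3 averaged 844.3 CPM in DDIT3 libraries and 29.5 CPM in ATF4 libraries, against 15.6 CPM in GFP libraries. Transcripts of the vector and of the mouse gene cannot be told apart in these counts. Libraries held 6217744 to 7514376 counts in ATF4, 7268663 to 8317249 in DDIT3 and 6680988 to 7963333 in GFP. Y-linked genes and Xist marked 4 of 5 libraries as male in ATF4, 4 of 5 in DDIT3 and 3 of 5 in GFP. The summed level of 10 cardiomyocyte markers lay between 93800 and 105000 CPM in ATF4, between 117000 and 128000 CPM in DDIT3 and between 112000 and 142000 CPM in GFP, and none of the 10 was at 0. The 12 endothelial markers summed to 1120 to 1620 CPM in ATF4, 469 to 796 CPM in DDIT3 and 484 to 975 CPM in GFP, so that the ATF4 libraries lay above all others. In these bulk samples, fewer cells of a type and less RNA per cell cannot be told apart.

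The sequences upstream of Impdh1 and Atic, the 2 genes that were higher with ATF4, and of Prps1, which held the ATF4 element, are shown because 2 of the vectors carry transcription factors. They are RefSeq promoter windows on GRCm38.p6 (mm10), 250 bases that end just before the annotated transcript start, written in the direction of the gene. Capitals mark matches to 4 motifs searched on both strands: the E-box CACGTG bound by MYC and its relatives, the ATF4 and C/EBP composite element TGATGNAA, the cyclic AMP response element TGACGTCA, and TGCAATCC, a C/EBP and ATF sequence. Impdh1 has 2 annotated starts, with windows at chr6:29216365-29216614 and chr6:29212298-29212547 on the minus strand. Atic has its window at chr1:71556906-71557155 on the plus strand, and Prps1 at chrX:140456353-140456602 on the plus strand.
Impdh1, window 1: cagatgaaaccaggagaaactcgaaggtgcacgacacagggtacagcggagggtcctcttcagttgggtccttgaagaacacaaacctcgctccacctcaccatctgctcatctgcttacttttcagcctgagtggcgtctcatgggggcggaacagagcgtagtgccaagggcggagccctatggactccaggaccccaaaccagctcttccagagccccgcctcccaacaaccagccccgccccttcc
Impdh1, window 2: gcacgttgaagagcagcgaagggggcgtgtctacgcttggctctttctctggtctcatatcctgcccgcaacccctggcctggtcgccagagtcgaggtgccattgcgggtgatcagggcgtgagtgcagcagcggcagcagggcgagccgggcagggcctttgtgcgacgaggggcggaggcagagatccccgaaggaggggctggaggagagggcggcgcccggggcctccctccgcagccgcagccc
Atic: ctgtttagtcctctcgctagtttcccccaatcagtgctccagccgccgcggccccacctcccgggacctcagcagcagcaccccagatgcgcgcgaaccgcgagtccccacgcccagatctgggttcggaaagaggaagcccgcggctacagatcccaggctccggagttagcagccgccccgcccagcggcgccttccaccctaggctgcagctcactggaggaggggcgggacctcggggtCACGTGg
Prps1: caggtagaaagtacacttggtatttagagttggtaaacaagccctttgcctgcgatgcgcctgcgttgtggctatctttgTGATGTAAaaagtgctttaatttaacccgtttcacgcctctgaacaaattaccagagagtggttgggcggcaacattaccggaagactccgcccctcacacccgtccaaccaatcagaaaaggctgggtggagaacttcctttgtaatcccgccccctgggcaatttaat
Neither Impdh1 window held any of the 4 motifs. The Atic window held CACGTG starting 7 bases before the transcript start, which GENCODE annotates 6 bases further upstream, and the Prps1 window held TGATGTAA starting 170 bases before it. Among the 10 windows found, which belong to 9 of the 10 genes, CACGTG also stood in those of Paics (203 bases before the start) and Impdh2 (110 bases before the start). In GENCODE, 150 of the 250 bases of the Impdh2 window are exon of Impdh2 itself, and the match lies among them. All 250 bases of the Paics window are exon of Ppat in GENCODE. The windows of Ppat, Gart, Adsl and Gmps held none of the 4 motifs. Of 32851 windows of the same length over all genes, 6.02% held CACGTG, 3.45% TGATGNAA, 1.55% TGACGTCA and 0.463% TGCAATCC. A match is a string of letters and not a measured binding site.

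Paics and Ppat lie head to head on chromosome 5 (Paics at 76951307 to 76967509 on the plus strand, Ppat at 76913249 to 76951578 on the minus strand, mm10), and their annotated exons share 272 bases on opposite strands. The library kit does not mark strand, so reads in those 272 bases cannot be given to 1 of the 2 genes by strand. Gart (chromosome 16, 91621186 to 91646952) shares 1014 exon bases with the antisense gene Gm15964, and Impdh2 (chromosome 9, 108560286 to 108565584) shares 48 with Ndufaf3. Impdh1 (chromosome 6, 29200434 to 29216364), Atic (chromosome 1, 71557150 to 71579631) and Adsl (chromosome 15, 80948490 to 80970946) share no exon bases with another annotated gene.

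Per length of transcript, the 10 genes spanned a wide range in control cardiomyocytes. Levels are given as RPKM (CPM divided by length in kilobases) with the deposited gene lengths, as mean and SD over the 5 GFP libraries. The exons annotated in GENCODE cover more bases than these lengths, unevenly by gene. They cover 5634 against 2109 for Adsl, 7985 against 2611 for Atic, 3139 against 2378 for Paics and 1993 against 1975 for Prps1. The order, overlaps, percentiles and ratios between genes hold for the deposited lengths, and other lengths were not tried. Paics, the bifunctional enzyme of the middle of the pathway, led with 95.3 ± 9.44 RPKM, and Adsl, the lyase that releases fumarate both on the way to IMP and on the way to AMP, followed with 84.8 ± 4.20 RPKM. Their ranges overlapped. Gart, the trifunctional enzyme of the early steps, stood at 23.8 ± 3.29 RPKM, Gmps, the GMP synthetase, at 21.1 ± 4.21 RPKM, Prps1, the PRPP synthetase, at 18.7 ± 3.46 RPKM and Impdh1 at 14.7 ± 1.27 RPKM. Neighbours in the order among these 4 overlapped. Ppat, the amidotransferase of the committed step, was lower than these 4 at 10 ± 1.5 RPKM and overlapped with neither neighbour.

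Impdh2 (3.89 ± 0.649 RPKM) and Atic (3.49 ± 0.482 RPKM) overlapped with each other in GFP, and Pfas, the amidotransferase that takes a second glutamine, was lowest at 1.13 ± 0.345 RPKM. Among all tested genes of the GFP libraries, Paics stood at percentile 94.6 and Pfas at percentile 13.5. The order in ATF4 differed in the place of Impdh1, which moved up in the order to 23.6 ± 0.959 RPKM, next to Gart at 24.1 ± 1.45 RPKM, and in that of Atic, whose mean of 5.10 ± 1.11 RPKM was above that of Impdh2 at 4.46 ± 1.16 RPKM with overlapping ranges. Atic and Impdh2 stood in the same order in DDIT3, at 3.69 ± 0.289 and 3.65 ± 0.662 RPKM, again with overlapping ranges. The summed level of all 10 genes was 259 ± 20.6 RPKM in ATF4 and 274 ± 21.0 RPKM in DDIT3, against 277 ± 17.8 RPKM in GFP (SD, n = 5 each). The ranges of the sum overlapped among the groups, at 233 to 283 RPKM in ATF4 and 252 to 308 RPKM in DDIT3, against 259 to 305 RPKM in GFP.

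**Figure D1:**
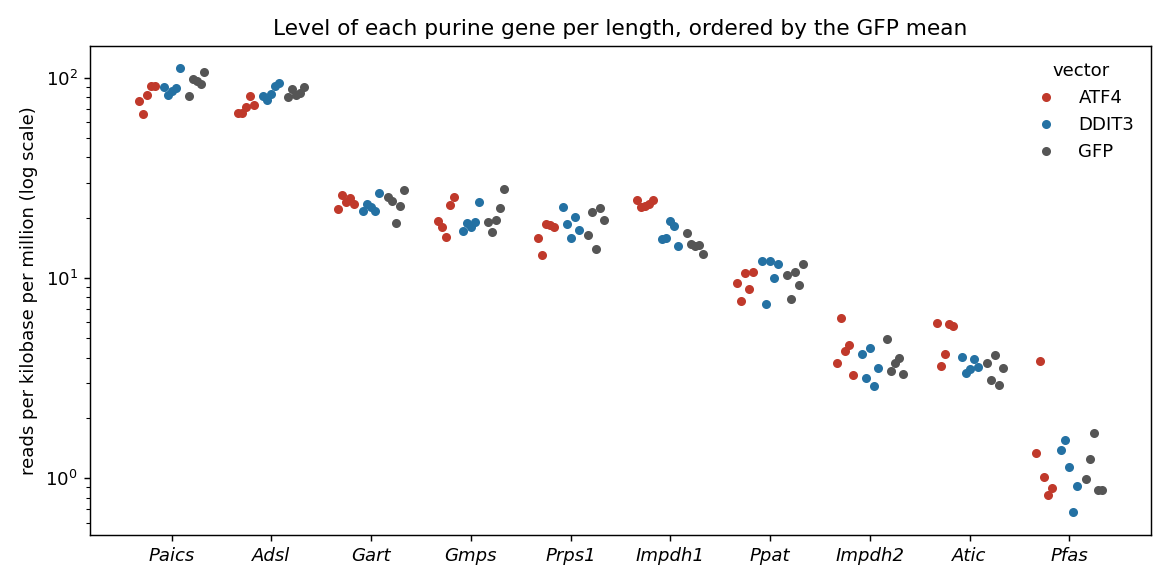
Level per length (RPKM, log axis) of the 10 de novo purine genes in ATF4, DDIT3 and GFP cardiomyocytes; points are libraries (5 per group). Paics and Adsl lie on top in all 3 groups, Pfas has the lowest mean in each although 1 of its ATF4 points reaches 3.84 RPKM, and the ATF4 points of Impdh1 lie above those of DDIT3 and GFP.

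The share of these genes called in ATF4 against GFP was close to that of all genes tested. Impdh1 was 60.4% higher and Atic 46.6% higher in ATF4 than in GFP, Adsl was 15.4% lower, and the other 7 did not pass the test. So 3 of 10 were called by edgeR's quasi-likelihood test (Benjamini-Hochberg adjusted p below 0.05 over all genes), where 32.2% of all genes tested were called, which puts the count of the 10 close to the background. The median log2 fold change of the 10 was -0.01, against 0.02 over all genes, and the median size of the change, whatever its sign, was 0.21 against 0.32. At an unadjusted p below 0.05 the count was also 3 of 10, against 42.6% of all genes. The CPM values below are scaled with TMM factors and compare libraries, not genes.

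Prps1, which makes PRPP from ribose 5-phosphate, had 31.2, 25.6, 36.7, 36.2 and 35.6 CPM in ATF4 and 32.3, 42.4, 27.7, 44.0 and 38.4 CPM in GFP. The groups overlapped, and the log2 fold change was -0.16 ± 0.14 (SE, edgeR adjusted p = 0.417). Prps1 lies on the X chromosome. It has the near copies Prps1l1 and Prps1l3, with which it may share reads, so that its counts are uncertain to that extent.

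Ppat, which puts the first nitrogen on PRPP, averaged 37.9 CPM in ATF4 against 40.1 CPM in GFP, with a log2 fold change of -0.08 ± 0.15 (95% interval -0.39 to 0.23). Gart, which adds glycine and a formyl group, averaged 80.3 CPM in ATF4 against 79.1 CPM in GFP, with a log2 fold change of 0.02 ± 0.10 (95% interval -0.20 to 0.24). Neither passed the test (edgeR adjusted p = 0.726 and 0.898), and for Gart changes beyond 0.24 in log2 lay outside the interval.

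Pfas showed 1 high library. It had 8.46, 24.5, 6.46, 5.25 and 5.72 CPM in ATF4 and 6.30, 7.95, 10.7, 5.53 and 5.53 CPM in GFP. ATF4 replicate 2 stood far above every other library, and the other 4 ATF4 libraries lay within or just under the range of the controls. The log2 fold change was 0.48 ± 0.38 (edgeR adjusted p = 0.361), and it turned to -0.15 without ATF4 replicate 2. The level of Pfas rested on 37 to 167 counts per library in ATF4 and 35 to 70 in GFP.

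Paics had 182.6, 156.1, 195.8, 217.7 and 216.6 CPM in ATF4 and 193.5, 234.2, 228.1, 221.6 and 255.6 CPM in GFP. The groups overlapped, and its log2 fold change of -0.23 ± 0.11 did not pass the test (edgeR adjusted p = 0.138). Per length, Paics exceeded its head-to-head neighbour Ppat by a factor of 8.65 ± 1.04 in ATF4 and 8.77 ± 1.65 in DDIT3, against 9.70 ± 1.77 in GFP.

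Adsl had 140.1, 140.6, 151.4, 170.9 and 153.5 CPM in ATF4 and 169.7, 185.6, 172.2, 176.6 and 190.4 CPM in GFP. Only ATF4 replicate 4 reached the range of the controls. Adsl fell by 0.24 on the log2 scale (SE 0.09, 95% interval -0.43 to -0.06, edgeR adjusted p = 0.0432). This call was close to the threshold: it was lost in 14 of 27 alternative settings, where the adjusted p of all 27 spanned 0.0103 to 0.356. Among the 15 settings that leave out 1 library, it was lost in 9, without ATF4 replicate 1, 2, 3 or 5, GFP replicate 2, 3, 4 or 5, or DDIT3 replicate 3 (adjusted p 0.0508 to 0.104, log2 fold change -0.26 to -0.21).

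Atic, the bifunctional enzyme that adds the last formyl group and closes the ring to IMP, had 15.6, 9.53, 10.9, 15.5 and 15.1 CPM in ATF4 and 9.79, 8.08, 10.7, 7.64 and 9.32 CPM in GFP. ATF4 replicates 1, 4 and 5 lay well above the controls, replicate 3 was just above the highest of them and replicate 2 lay inside their range. Atic rose by a log2 fold change of 0.55 ± 0.16 (95% interval 0.21 to 0.89, edgeR adjusted p = 0.0138), and the call held in all 27 alternatives, with adjusted p up to 0.0427. It rested on 65 to 120 counts per library in ATF4 and 58 to 73 in GFP.

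**Figure D2:**
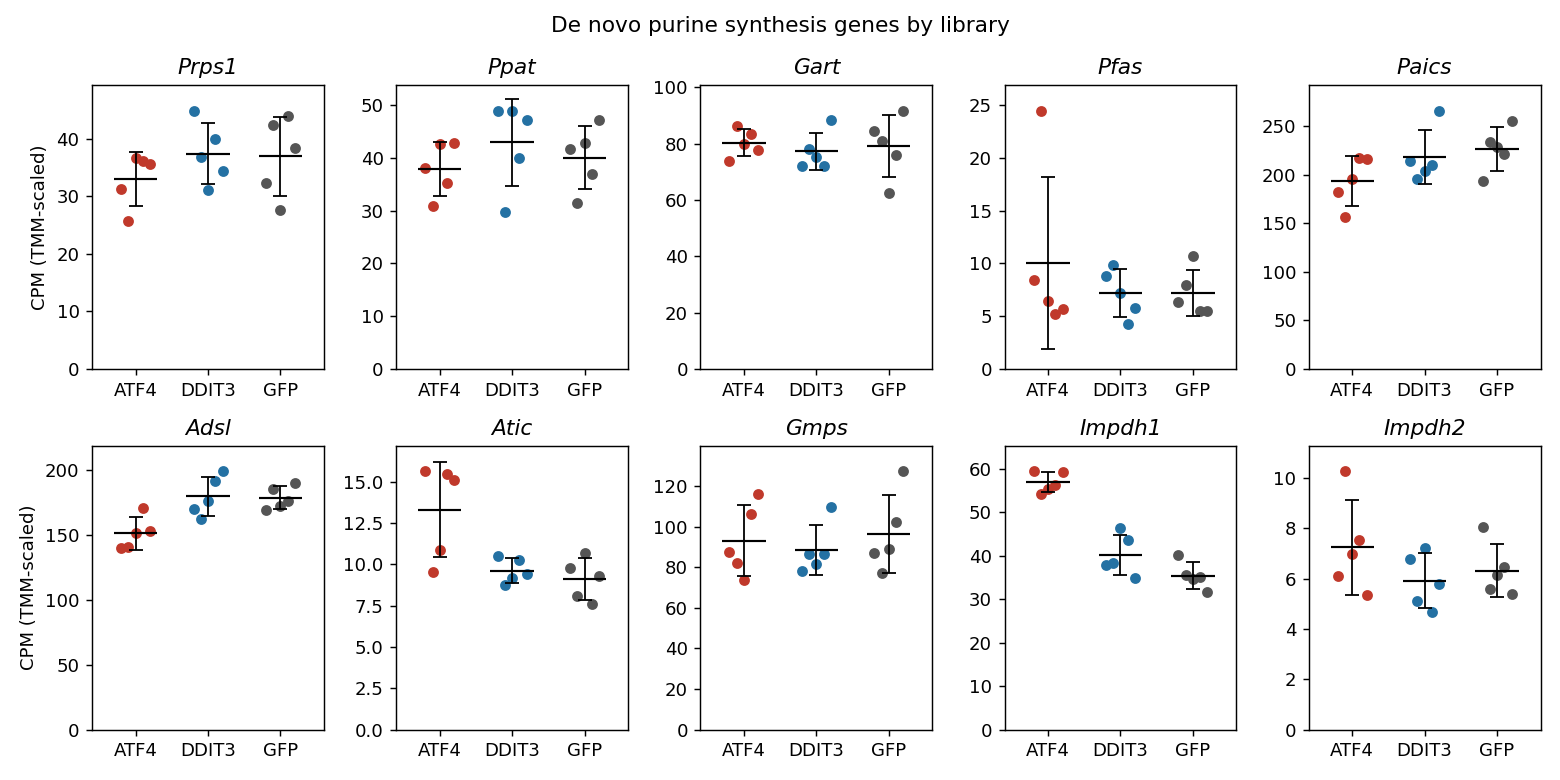
CPM of each of the 10 genes in each library (1 panel per gene, each with its own linear axis from 0); points are the 5 libraries of ATF4, DDIT3 and GFP, and bars are group means with SD. The ATF4 points of Impdh1 lie above all GFP and DDIT3 points, those of Atic are split, and 1 ATF4 library stands apart for Pfas.

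Past IMP, Impdh1 and Impdh2 encode the 2 isozymes that oxidise IMP on the way to GMP, and Gmps completes GMP with nitrogen from glutamine. Impdh1 had 59.4, 54.2, 55.3, 56.4 and 59.2 CPM in ATF4 and 40.2, 35.6, 34.6, 35.0 and 31.8 CPM in GFP. All 5 ATF4 libraries lay above all 5 GFP libraries, as was so for 1 of the 10 genes and, in either direction, for 21.4% of all genes tested. Impdh1 rose by a log2 fold change of 0.68 ± 0.10 (95% interval 0.48 to 0.89, edgeR adjusted p = 3.76e-05), and the call held in all 27 alternatives, with adjusted p up to 0.00135.

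Impdh2 had 6.12, 10.3, 6.99, 7.52 and 5.33 CPM in ATF4 and 8.05, 5.60, 6.13, 6.45 and 5.37 CPM in GFP, and its log2 fold change was 0.19 ± 0.20 (edgeR adjusted p = 0.487). Impdh1 supplied 84.2 ± 3.88% of the summed RPKM of the 2 isozymes in ATF4 and 82.0 ± 2.87% in DDIT3, against 79.2 ± 1.48% in GFP, with overlapping ranges (78.1 to 88.2% in ATF4, 79.0 to 86.3% in DDIT3 and 77.1 to 81.1% in GFP). Gmps averaged 93.0 CPM in ATF4 against 96.5 CPM in GFP, with a log2 fold change of -0.05 ± 0.15 (adjusted p = 0.823, edgeR).

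Markers of some other cell types moved between the same groups. Over all genes tested, 16.5% were called higher and 15.6% lower in ATF4 than in GFP. Of 12 endothelial markers tested, 11 were called higher in ATF4 than in GFP and none was at 0. Of 9 pericyte and smooth muscle markers tested 5 were called higher. All 10 listed summed to 735 to 1410 CPM in ATF4 and 871 to 1360 CPM in GFP. The largest parts of that sum were Abcc9 (496.4 CPM in ATF4 against 472.8 CPM in GFP) and Acta2 (386.9 against 460.8), neither of them called. Of 9 fibroblast markers tested 1 was called higher (summed 425 to 975 CPM in ATF4 and 321 to 812 CPM in GFP over all 10 listed). Of 7 proliferation genes tested 2 were called higher (summed 40.9 to 104 CPM in ATF4 and 36.9 to 66.4 CPM in GFP over 11 listed), and of 5 leukocyte markers none was called in either direction. The leukocyte markers summed to 11.1 to 27.0 CPM in ATF4 and 17.1 to 25.3 CPM in GFP, with Cd3e at 0 in both. The part of these markers in the values of Impdh1, Atic and Adsl was not tested.

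In the authors' deposited table for ATF4 against GFP, the same 3 genes of the 10 had an adjusted p below 0.05, with log2 fold changes of 0.66 for Impdh1, 0.53 for Atic and -0.26 for Adsl.

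DDIT3 left all 10 genes uncalled. Compared with GFP, 0 of 10 passed edgeR's test at an adjusted p below 0.05, against a background of 0.863% of all genes, and 0 of 10 had an unadjusted p below 0.05, against 9.71%. None of the 10 had groups without overlap, as 2.86% of all genes had. DESeq2 and limma-voom also called 0 of the 10. With the replicate number as a block, which pairs these 2 groups, 322 genes in place of 102 were called over the whole table, and still 0 of the 10. The median log2 fold change of the 10 was 0.005 against 0.004 over all genes, and the median size of the change was 0.07 against 0.13.

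Impdh1 came nearest, with 37.8, 38.3, 46.3, 43.6 and 34.9 CPM in DDIT3 and the GFP values given above. The groups overlapped, and the log2 fold change was 0.18 ± 0.10 (95% interval -0.03 to 0.39, edgeR adjusted p = 0.602). Atic had 10.5, 8.74, 9.17, 10.3 and 9.43 CPM in DDIT3, with a log2 fold change of 0.08 ± 0.16 (95% interval -0.26 to 0.43). Adsl had 170.3, 162.7, 176.1, 191.8 and 199.0 CPM in DDIT3, with a log2 fold change of 0.01 ± 0.09 (95% interval -0.18 to 0.19). A rise of Adsl by more than 0.19 in log2 lies outside its interval, while a rise of Atic of up to 0.43 lies inside. Of the other 7 genes, Ppat (0.10 ± 0.15) and Gmps (-0.12 ± 0.15) had the widest departures from 0, and Pfas had the widest error (0.001 ± 0.39). Prps1 stood at 0.02 ± 0.14, Gart at -0.04 ± 0.10, Paics at -0.06 ± 0.11 and Impdh2 at -0.09 ± 0.20, all as log2 fold change and SE. The authors' deposited table for DDIT3 also had 0 of the 10 at an adjusted p below 0.05.

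**Figure D3:**
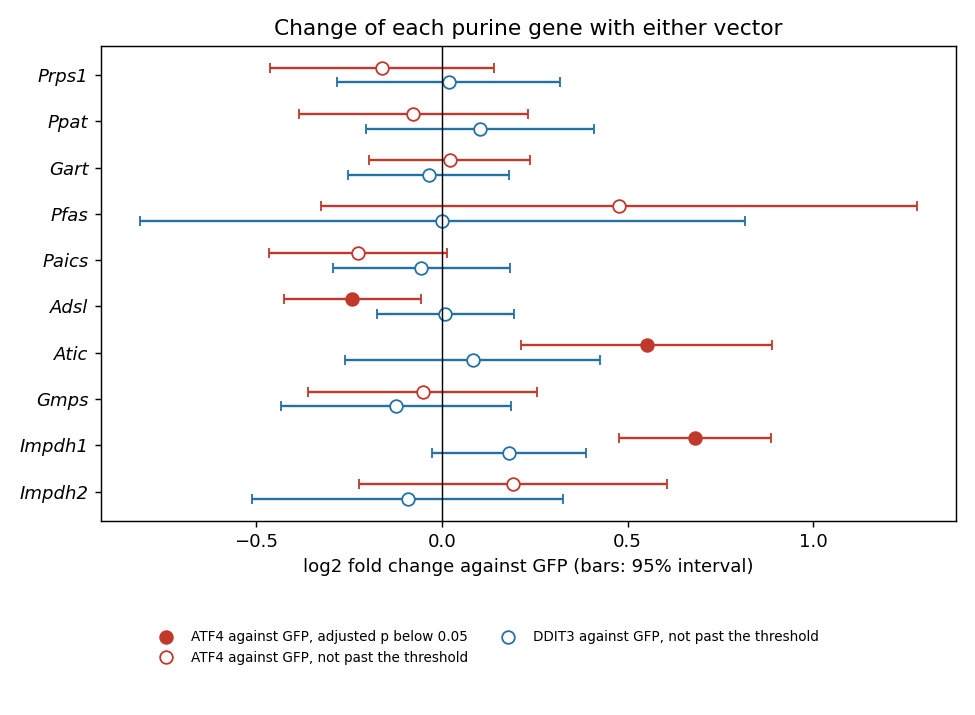
Log2 fold change (horizontal axis) of each of the 10 genes in ATF4 against GFP (red) and DDIT3 against GFP (blue), with 95% intervals from edgeR; filled points passed an adjusted p of 0.05. Impdh1 and Atic lie right of 0 and Adsl left of 0 in ATF4, and all DDIT3 against GFP intervals include 0.

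The comparison of ATF4 with DDIT3 sets the 2 transcription factors against each other, in the same fit of 15 libraries, whose spread the GFP libraries share. It called 3 of 10 genes (edgeR adjusted p below 0.05), where 33.8% of all genes were called, again close to the background, and 3 of 10 at an unadjusted p below 0.05, against 43.3%. Impdh1 averaged 56.9 CPM in ATF4 against 40.2 CPM in DDIT3, with groups that did not overlap (as for 22.6% of all genes) and a log2 fold change of 0.50 ± 0.10 (adjusted p = 0.000679, edgeR), called in all 27 alternatives. Atic averaged 13.3 CPM in ATF4 against 9.63 CPM in DDIT3, with overlapping groups and a log2 fold change of 0.47 ± 0.16 (adjusted p = 0.0297, edgeR). Adsl averaged 151.3 CPM in ATF4 against 180.0 CPM in DDIT3, with a log2 fold change of -0.25 ± 0.09 (adjusted p = 0.0348, edgeR). The other 7 genes had log2 fold changes between -0.18 (Ppat) and 0.48 (Pfas), with edgeR adjusted p of 0.271 or more. Without ATF4 replicate 2, the value of Pfas turned to -0.15. Of the 3 calls, 1 remained without ATF4 replicate 1, ATF4 replicate 5 or DDIT3 replicate 5, and 1 with no filter on low counts. The call of Atic was lost without ATF4 replicate 1, 4 or 5 or DDIT3 replicate 2, 3 or 5 (adjusted p 0.0572 to 0.0834), and that of Adsl without ATF4 replicate 1, 2, 3 or 5 or DDIT3 replicate 4 or 5 (0.0504 to 0.09). With the ATF4 and DDIT3 libraries fitted alone, the call of Adsl was also lost (edgeR adjusted p = 0.065). The comparisons of ATF4 and of DDIT3 with GFP share the GFP libraries, and the comparisons of ATF4 with GFP and with DDIT3 share the ATF4 libraries, so that they are not independent of each other. All 12 endothelial markers were called higher in ATF4 than in DDIT3 (1120 to 1620 against 469 to 796 CPM summed), and their part in these values was not tested.

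Genes of the pathways that feed the 10 were counted in the same way, and each count stands against the shares of all genes tested, of which 16.5% were called higher and 15.6% lower in ATF4 than in GFP. PRPP comes from a family of synthetases and associated proteins, of which 4 besides Prps1 were tested, 2 were called higher and 0 lower in ATF4 (all genes: 16.5% and 15.6%), with a median log2 fold change of 0.37. Prps2, the second PRPP synthetase, had 22.5, 18.2, 16.5, 25.8 and 31.1 CPM in ATF4 and 14.8, 13.6, 11.2, 12.2 and 12.3 CPM in GFP. Its groups did not overlap, and it rose by a log2 fold change of 0.83 ± 0.16 (adjusted p = 0.000672, edgeR). Prpsap1, a protein that binds the synthetases, averaged 54.0 CPM in ATF4 against 42.1 CPM in GFP (log2 fold change 0.36 ± 0.10, edgeR adjusted p = 0.0101). Prpsap2 had a log2 fold change of 0.37 ± 0.34 (adjusted p = 0.429, edgeR) and Prps1l3 of -0.01 ± 0.15 (adjusted p = 0.957, edgeR).

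The pentose phosphate pathway makes the ribose 5-phosphate from which PRPP is built. Of 9 of its genes tested, 3 were called higher in ATF4 and 0 lower, with a median log2 fold change of 0.21. In either direction, this share is close to the 32.2% of all genes called. They were G6pdx, the entry enzyme (10.8 CPM in ATF4 against 3.33 CPM in GFP, log2 fold change 1.69 ± 0.22), Pgd of the next oxidative step (0.48 ± 0.09) and Tkt, the transketolase (0.76 ± 0.21). All 3 had edgeR adjusted p of 0.00966 or less.

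Glycine and formyl groups come from serine through the folate enzymes. Of 19 genes of this supply tested, 10 were called higher in ATF4 and 2 lower (all genes: 16.5% and 15.6%), with a median log2 fold change of 0.65 against 0.02 over all genes. Shmt2, which splits serine into glycine and a one-carbon unit in mitochondria, averaged 621.6 CPM in ATF4 against 68.9 CPM in GFP (log2 fold change 3.17 ± 0.09, edgeR adjusted p = 1.95e-14). Mthfd2, the next folate enzyme, averaged 720.6 CPM in ATF4 against 1.38 CPM in GFP, and Psat1 of serine synthesis 323.8 CPM in ATF4 against 1.29 CPM in GFP. Phgdh, the first enzyme of serine synthesis, averaged 345.7 CPM in ATF4 against 0.106 CPM in GFP. The 2 lower genes were Mthfd2l, a mitochondrial relative of Mthfd2 (-0.88 ± 0.20), and Gcsh of glycine cleavage (-0.47 ± 0.15). Mthfd1, the cytosolic enzyme that forms the formyl donor used by Gart and Atic, was picked after its values were seen and had a log2 fold change of 0.27 ± 0.15 (adjusted p = 0.185, edgeR).

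Glutamine and aspartate give the ring most of its nitrogen. Of 10 genes that supply or use them, 5 were called higher in ATF4 and 3 lower (all genes: 16.5% and 15.6%), with a median log2 fold change of 0.42. The higher ones included Asns, which turns aspartate and glutamine into asparagine and glutamate (7.70 ± 0.15), and the glutamine carriers Slc1a5 (4.60 ± 0.24), Slc38a1 (1.81 ± 0.14) and Slc38a2 (0.53 ± 0.15), all on the log2 scale. The lower ones were Got2, the mitochondrial aspartate aminotransferase (516.1 CPM in ATF4 against 989.8 CPM in GFP, -0.94 ± 0.10), and the mitochondrial aspartate and glutamate carriers Slc25a12 (-0.58 ± 0.11) and Slc25a13 (-0.50 ± 0.12).

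**Figure D4:**
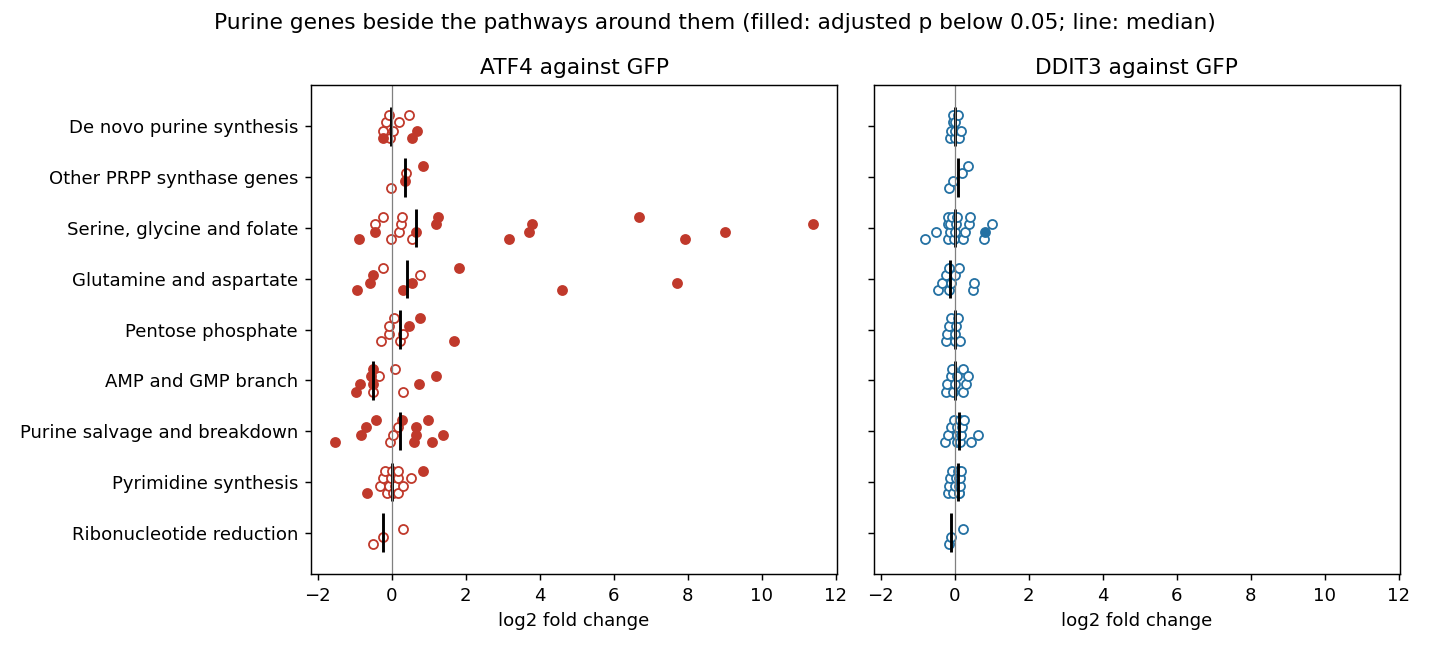
Log2 fold changes in ATF4 against GFP (left panel) and DDIT3 against GFP (right panel) of the 10 de novo purine genes and of the genes of neighbouring pathways (1 point per tested gene, filled where called by edgeR, bar at the list median). In ATF4 the de novo genes lie between -0.24 and 0.68, while the serine and folate genes reach 11.39.

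Beyond IMP, other genes interconvert adenine and guanine nucleotides. Of 11 tested, 5 were called lower in ATF4 and 2 higher (all genes: 15.6% and 16.5%), with a median log2 fold change of -0.50. Gmpr, which turns GMP back into IMP, averaged 154.9 CPM in ATF4 against 300.5 CPM in GFP (log2 fold change -0.96 ± 0.11, edgeR adjusted p = 2.55e-06), while Gmpr2, its relative of the same activity, averaged 26.0 CPM in ATF4 against 15.8 CPM in GFP (0.72 ± 0.12). Adssl1, the muscle enzyme that starts the step from IMP to AMP, averaged 183.0 CPM in ATF4 against 258.9 CPM in GFP (-0.50 ± 0.10). The adenylate kinase genes Ak1 (-0.57 ± 0.13) and Ak3 (-0.86 ± 0.10) were lower too, and Ampd2, an AMP deaminase, was higher (1.19 ± 0.26). Cardiomyocyte markers were lower in the same comparison, with 5 of 10 called lower, 0 higher and a median log2 fold change of -0.40. Their part in the values of Gmpr, Adssl1, Ak1 and Ak3 was not tested.

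Salvage and breakdown of purines split in both directions. Of 14 genes tested, 7 were called higher in ATF4 and 4 lower (all genes: 16.5% and 15.6%), with a median log2 fold change of 0.22. Hprt, which recycles hypoxanthine and guanine and was picked after its values were seen, had a log2 fold change of -0.04 ± 0.11 (adjusted p = 0.812, edgeR), and Aprt, which recycles adenine, rose by 0.64 ± 0.14. Adk, the adenosine kinase, averaged 202.9 CPM in ATF4 against 330.9 CPM in GFP (-0.71 ± 0.09), and Dguok, the mitochondrial deoxyguanosine kinase, was also lower (-0.85 ± 0.12). Of the nucleotidases, Nt5c (0.97 ± 0.19), Nt5c2 (0.60 ± 0.13) and Nt5e (1.09 ± 0.24) were higher and Nt5c1a (-1.55 ± 0.30) and Nt5c3 (-0.44 ± 0.14) lower in ATF4. Nt5e is also known from endothelial cells and fibroblasts, and the part of those cells' markers in its value was not tested.

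Pyrimidine synthesis is the sister pathway. Of its 16 genes tested, Uck2, a uridine and cytidine kinase, was called higher (0.85 ± 0.19) and Dhodh, the mitochondrial enzyme of the ring-forming steps, lower (-0.68 ± 0.12), with a median log2 fold change of 0.01. Over all genes, 16.5% were called higher and 15.6% lower. Of 3 ribonucleotide reductase genes none was called in ATF4 against GFP by edgeR, while 1 had an unadjusted p below 0.05. Rrm1, the large subunit, had a log2 fold change of 0.31 ± 0.12 (adjusted p = 0.0511, edgeR), Rrm2, the small subunit, of -0.50 ± 0.39 (adjusted p = 0.351) and Rrm2b, its p53-regulated form, of -0.25 ± 0.18 (adjusted p = 0.318).

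Of 12 listed regulators, the vectors' own genes and factors of the MYC and E-box families among them, 5 were called higher in ATF4 and 2 lower, against 16.5% and 15.6% of all genes. The 5 include Atf4, which the vector carries, and Ddit3 (log2 fold change 0.91 ± 0.17, adjusted p = 0.00061, edgeR), whose groups did not overlap. Myc had 42.6, 54.0, 22.1, 32.5 and 26.2 CPM in ATF4 and 6.04, 2.997, 1.84, 1.45 and 1.58 CPM in GFP, with no overlap and a log2 fold change of 3.65 ± 0.38 (adjusted p = 1.04e-06, edgeR). Max, the partner with which MYC binds DNA, was lower (-1.21 ± 0.39), as was Mitf, an E-box factor (-0.75 ± 0.28), and Trib3, a pseudokinase induced in stress, was higher (7.57 ± 0.24). Of the 3 purine genes with CACGTG in their promoter window, Atic was called higher (all genes: 16.5%), while Paics and Impdh2 were not called. The part of Myc in these values was not tested.

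In DDIT3 against GFP, few genes of the neighbouring pathways were called, as was so over all genes tested (0.863%). Across the 8 supply and nucleotide lists above, Shmt1, the cytosolic serine hydroxymethyltransferase, was the only gene called, and was named after its values were seen (21.6 CPM in DDIT3 against 12.3 CPM in GFP, log2 fold change 0.81 ± 0.19, edgeR adjusted p = 0.0499). Among the regulators, Ddit3 itself was called (5.75 ± 0.17), while Myc averaged 2.36 CPM in DDIT3 against 2.78 CPM in GFP (log2 fold change -0.27 ± 0.44, adjusted p = 0.929). Prps2 averaged 11.4 CPM in DDIT3 against 12.8 CPM in GFP (-0.17 ± 0.16), and Gmpr 303.8 CPM in DDIT3 against 300.5 CPM in GFP (0.02 ± 0.11).

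Within groups, the 10 genes varied together in some pairs and in opposite ways in others. After the group means were taken off, 23 of their 45 pairs had a positive Pearson correlation over the 15 libraries, with a median of 0.02 and a range from -0.67 (Pfas and Adsl) to 0.80 (Paics and Adsl). The genes whose log2 CPM was most like the mean standardised level of the 10 over the same 15 libraries were Blzf1 (Pearson r = 0.857), Mdm2 (0.852), Kbtbd7 (0.842), Pcyt1a (0.835) and Utp6 (0.833). None of these 5 was called in ATF4 or DDIT3 against GFP by edgeR. These correlations are descriptions over libraries that share groups and differ in depth.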

How the data were processed

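The submitters' processing notes list STAR, featureCounts, DESeq2 and DESeq beside the build mm10. Their versions are not given in the sources used here. Libraries were made from polyA RNA with kits named SMART-Seq v4 and, for the library step, Nextera XT, per the labels. SMART-Seq3 is named for GFP replicate 5, where the labels of the other 14 libraries have SMART-Seq2. Its CPM was the highest of the GFP libraries for Ppat, Gart, Paics, Adsl and Gmps. For Impdh1 and Impdh2 it was the lowest, and for Prps1, Pfas and Atic neither. Without it, Adsl was not called in ATF4 against GFP (log2 fold change -0.22, edgeR adjusted p = 0.0909), while Impdh1 and Atic still were. The part of the kit in these values was not tested. The authors deposited whole-number read counts of 23337 genes in 15 libraries, which gave every value not credited to their own tables, together with gene lengths (another unit) used for RPKM. The 2 deposited tables of the authors' comparisons hold, per the file headers, a mean signal, log2 fold changes and their errors, a test score and p-values.

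Counts were tested with edgeR 4.0.16 in R 4.3.3 (quasi-likelihood, robust, TMM factors, filterByExpr, 1 fit of 15 libraries with the group as its term, 12 residual degrees of freedom), with Benjamini-Hochberg adjustment over 11814 genes and a threshold of 0.05. The common biological coefficient of variation was 19.6%. DESeq2 1.42.0, limma-voom (limma 3.58.1), other scalings, filters, sexes and left-out libraries were alternatives (27 in all, 1 of them chosen after seeing the data). The fit was tested on simulated data. Errors of groups are SD over 5 libraries, and intervals are 95%. The p-values cover only the spread among these samples, which may be technical. Libraries of a group differed by chi-square per degree of freedom of 8.60 to 50.4 over genes with at least 20 counts, so none was a copy.

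The 10 genes and the lists were chosen with earlier results of these data known. Named are all 10, all tested genes of lists of up to 5, up to 4 called genes per direction with the lowest p of longer lists, Atf4, Ddit3, Myc and the 5 genes most alike. Others are said to be picked later. Same-numbered libraries deviated together from their group means (correlation above 0.1) in 5 of 5 pairs of DDIT3 and GFP (0.205 to 0.511). The same held for 5 of 5 pairs of ATF4 and DDIT3 (0.135 to 0.497), but for 4 of 5 of ATF4 and GFP (0.0783 to 0.386). The numbers were therefore taken to pair the first 2 comparisons, from the data alone, since no label says what a number marks. Numbers that pair those 2 comparisons would also pair ATF4 with GFP, which this rule does not resolve. Promoter sequences are from RefSeq and gene coordinates from GENCODE, both mm10.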

Additional observations from a re-analysis of the deposited data

Results flagged for a closer look

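Of 30 sets of 5 libraries (10 genes in 3 groups), 3 held a library whose gap to its nearest neighbour exceeded Dixon's 95% critical share of the set's range. Chance alone flags about 1 set in 20. Pfas in ATF4 replicate 2 stood at 24.48 CPM, a gap of 0.833 of the range. Paics in DDIT3 replicate 5 stood at 265.9 CPM (0.729), and Gmps in the same library at 109.7 CPM (0.734). None of the 10 genes was called in DDIT3 against GFP by edgeR, with or without DDIT3 replicate 5.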

How the results depend on the processing

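Over 27 alternatives, the rises of Impdh1 and Atic in ATF4 against GFP and of Impdh1 in ATF4 against DDIT3 kept their direction and call, and 0 of the 10 genes were called in DDIT3 against GFP. Members called in ATF4 against GFP numbered 2 to 4 (2 to 3 with 1 library left out). With the replicate number as a block they were 4, since Paics was then called (-0.23, edgeR adjusted p = 0.0366). Those numbers did not pair ATF4 with GFP by the rule used, although 4 of 5 libraries correlated best with their own number. The block changed no other call of the 10 genes. Members called in ATF4 against DDIT3 were 1 with no filter on low counts and 1 to 3 with 1 library left out. All genes called in DDIT3 against GFP were 228 by DESeq2, 322 with the block and 55 to 146 with 1 library left out, the lower counts (55 to 65) without DDIT3 replicate 1, 2 or 3 or GFP replicate 1, 3 or 4. The call of Atic in ATF4 against DDIT3 was lost in 7 settings (adjusted p up to 0.0834) and that of Adsl in 10 (up to 0.173). Scaling by library totals alone moved the median of all genes to 0.175 in ATF4 against GFP and to 0.113 in ATF4 against DDIT3; relative to the first, Adsl stood at -0.27 (-0.09 before), Impdh1 at 0.65, Ppat at -0.10 (0.0746 before) and Gmps at -0.07 (0.103 before), and Gart in DDIT3 against GFP, at 0.00268, stood at -0.04 relative to its own median of 0.0401. Ppat, Gmps and Gart did not turn relative to the median. Signs of uncalled genes turned elsewhere. Pfas in DDIT3 against GFP was -0.0063 with median-of-ratios factors, -0.00292 with upper-quartile factors, -0.000163 with no filter, -0.00786 by DESeq2, -0.00907 by limma-voom, -0.0121 with the compared groups alone and -0.0243 with the block. Adsl in DDIT3 against GFP was -0.00276 with the compared groups alone. In male libraries alone, ATF4 against GFP gave 0.0278 for Prps1, 0.0349 for Ppat, -0.359 for Pfas, 0.179 for Gmps and -0.028 for Impdh2, DDIT3 against GFP 0.0186 for Gart, -0.337 for Pfas, 0.0334 for Paics and 0.0779 for Gmps, and ATF4 against DDIT3 -0.0218 for Pfas. Without ATF4 and DDIT3 replicate 2 (chosen after seeing the data), Gart was -0.0077 in ATF4 against GFP, and Pfas -0.153, -0.133 and -0.0199 in ATF4 against GFP, DDIT3 against GFP and ATF4 against DDIT3. With 1 library left out, ATF4 against GFP spanned -0.0541 to 0.0772 for Gart, -0.152 to 0.657 for Pfas and -0.145 to 0.0643 for Gmps. DDIT3 against GFP spanned -0.0687 to 0.0884 for Prps1, -0.109 to 0.0227 for Gart, -0.134 to 0.183 for Pfas, -0.03 to 0.0429 for Adsl and -0.175 to 0.0101 for Impdh2. ATF4 against DDIT3 spanned -0.154 to 0.635 for Pfas and -0.0211 to 0.158 for Gmps. The cause of these changes was not tested. Pfas, Impdh2 and Atic rested on few counts (33 to 167, 34 to 70 and 58 to 120 per library).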
